A study of Mus musculus with 7 samples.

Results

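Serotonin and melatonin metabolism was followed here through 8 genes in samples of retinal pigment epithelium (RPE) from Mfrp rd6 mutant and wild-type mice. These were the tryptophan hydroxylases Tph1 and Tph2, the decarboxylase Ddc, the acetyltransferase Aanat, the melatonin receptor Mtnr1a, the serotonin transporter Slc6a4 and the monoamine oxidases Maoa and Maob. The genes were chosen by their role in the pathway, with results of the same comparison of Mfrp rd6 and wild type already known, and the probe set of each was selected on the highest mean over all arrays. All 8 were measured, of 19938 genes with a probe set annotated to 1 symbol. Their differences between the groups are therefore given as a description, with a standard error and an interval but no p-value.

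The study put 1 RNA sample on each of 7 Affymetrix gene arrays, 3 from Mfrp rd6 mice and 4 from wild-type (WT) mice, all on the C57Bl/6J background, with no agent named in the labels. The product of Mfrp sits in the membrane of RPE cells and resembles the frizzled receptors, and mice homozygous for rd6 slowly lose their photoreceptors. The age field gives 12 weeks for every Mfrp rd6 sample and 8 weeks for every wild-type sample, so that under this field age and genotype cannot be told apart, whereas the growth protocol gives 12 weeks for Mfrp rd6 replicate 1 alone and 8 weeks for the rest. Nothing in the labels says that replicates came from separate animals, so the intervals and p-values cover the scatter of these arrays alone, and that scatter could be technical.

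The values are log2 signals after RMA, which corrects the background, equalises the distributions of the arrays and summarises the probes of a set. Over the 19938 genes the lower quartile of an array lay between 5.39 and 5.57, the median between 7.09 and 7.15 and the upper quartile between 8.73 and 8.84. A signal depends on its probes as well as on the transcript, so these quartiles only show where an array is dim. RMA compresses changes of dim probe sets, and the number of arrays limits the precision. Rpe65, the isomerase of the visual cycle and a defining RPE gene, was above the upper quartile on all 7 arrays, with means of 12.64 ± 0.16 (SD, n = 3) in Mfrp rd6 and 12.87 ± 0.05 (SD, n = 4) in wild type. The surface epithelium keratins Krt5 and Krt14 were above it on all 7 arrays too, with means of 13.14 and 12.42 over the arrays. The samples thus also held transcripts of other tissue, and a signal cannot be assigned to the RPE alone. Wild-type replicate 3 lay above the other wild-type arrays in several marker means. It was at 8.18 for skeletal muscle where the others lay between 6.91 and 7.20, at 8.46 for rods where the others lay between 7.36 and 7.77, and at 8.66 for Schwann cells where the others lay between 8.43 and 8.47. The differences of Aanat and Ddc are therefore also given without it.

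In this pathway tryptophan is hydroxylated by a tryptophan hydroxylase and decarboxylated by Ddc to serotonin. Aanat acetylates serotonin, and a methyltransferase turns the product into melatonin. Serotonin is taken up again by Slc6a4 and oxidised by the monoamine oxidases, and melatonin acts on G protein-coupled receptors such as Mtnr1a. In the eye melatonin is known as a night signal made by photoreceptors, where Aanat is the step under clock and light control. The C57BL/6 strain is known to make little melatonin because its Aanat gene carries a splice defect, so an Aanat signal on these arrays reports transcript and not enzyme activity.

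Aanat was higher in Mfrp rd6 than in wild type, Ddc was lower, and the other 6 genes differed by no more than 0.17 log2 units in either direction. Aanat had the largest difference of the 8, at 1.93-fold. These were the 2 genes of the 8 in which no Mfrp rd6 array overlapped a wild-type array, and the same 2 were past an adjusted p of 0.05 in the limma fit over all genes, Aanat higher and Ddc lower. Ddc was not past it without Mfrp rd6 replicate 1 or without Mfrp rd6 replicate 2, which left 1 of the 8 genes, Aanat, while the count over all genes was 211 and 243 in those fits, against 429 with all arrays. Over all genes, 2.15% were past that threshold (1.34% higher and 0.813% lower), and 15.3% had groups that did not overlap. Nothing is read from the count of 2 beside these shares, since the genes were listed with this comparison known. The median absolute difference was 0.14 over the 8 genes and 0.09 over all genes, and the median signed difference was -0.06 over the 8 genes and -0.02 over all genes.

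**Figure D1:**
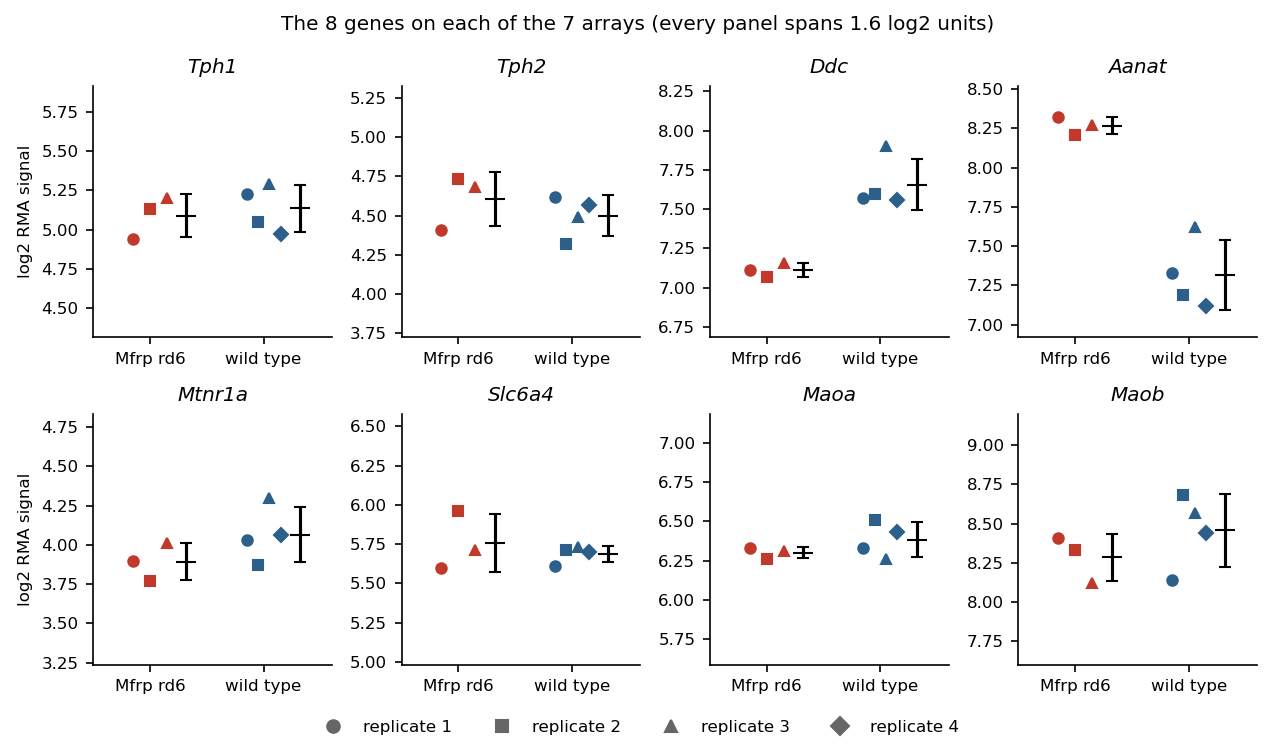
Log2 RMA signal of the 8 genes on each array, with Mfrp rd6 (red, n = 3) left of wild type (blue, n = 4), marker shapes for replicate numbers, and bars for the mean and SD. Aanat sits between 8.21 and 8.32 in Mfrp rd6, above wild type at 7.12 to 7.62, and Ddc sits between 7.07 and 7.16 in Mfrp rd6, below wild type at 7.56 to 7.90, whereas the other 6 genes overlap.

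The first step, hydroxylation of tryptophan, was dim in both groups. Tph1, the hydroxylase of the pineal gland and of tissues outside the brain, read 4.94, 5.13 and 5.20 in Mfrp rd6, against 5.23, 5.05, 5.29 and 4.97 in wild type. The groups overlapped almost fully, with a difference of -0.05 (95% confidence interval -0.27 to 0.18). Tph2, the hydroxylase of serotonin neurons, read 4.41, 4.73 and 4.68 in Mfrp rd6, against 4.62, 4.32, 4.49 and 4.57 in wild type, a difference of 0.11 (-0.12 to 0.33). Both hydroxylases lay below the lower quartile on all 7 arrays, so a change of either would be understated here and was not detectable beyond these intervals. Mast cells are a known source of Tph1, and of the 12 mast cell markers 8 lay below the lower quartile on every array, among them the proteases Cpa3 and Cma1. The mast cell marker mean ran from 4.83 to 4.96 in Mfrp rd6 and from 4.74 to 4.95 in wild type, and 0 of 12 changed (limma; 1 had an unadjusted p under 0.05). The share of all genes with an unadjusted p under 0.05 is not given, so counts at that level, here and below, are a description only.

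Ddc, which makes serotonin and also dopamine from their amino acid precursors, was lower in Mfrp rd6. Its signal was 7.11, 7.07 and 7.16 in Mfrp rd6, against 7.57, 7.60, 7.90 and 7.56 in wild type. The highest Mfrp rd6 array lay 0.40 below the lowest wild-type array, a gap larger than the range within wild type (0.34) and within Mfrp rd6 (0.09). The means were 7.11 ± 0.05 (SD, n = 3) in Mfrp rd6 and 7.66 ± 0.16 (SD, n = 4) in wild type, a difference of -0.54 (SE 0.09, 95% confidence interval -0.75 to -0.34), or 0.686-fold (0.593 to 0.793). Wild-type replicate 3 was the highest array, and without it the difference was -0.46. Without Mfrp rd6 replicate 1, which leaves equal ages under the growth protocol, it was -0.54.

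Ddc is known to start from alternative first exons in neurons and in other tissues, while the array gives it 1 probe set and hence 1 value. RefSeq (GRCm38.p6) lists 2 starts for the gene, and the 250 bases before each are shown because the lower Ddc signal could not be assigned to either. Both run 5′ to 3′ on the minus strand, with capitals for the letters of a TATA box (TATAAA) or a CCAAT box (CCAAT), each searched on both strands. In both windows the match was on the opposite strand, so the capitals show its reverse complement.

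Ddc upstream start, chr11:11898145-11898394, minus strand: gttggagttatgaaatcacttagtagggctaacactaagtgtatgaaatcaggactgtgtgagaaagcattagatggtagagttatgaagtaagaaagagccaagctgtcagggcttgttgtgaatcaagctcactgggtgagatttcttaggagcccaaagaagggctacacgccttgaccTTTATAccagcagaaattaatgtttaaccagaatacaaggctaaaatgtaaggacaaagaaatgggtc

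Ddc downstream start, chr11:11890409-11890658, minus strand: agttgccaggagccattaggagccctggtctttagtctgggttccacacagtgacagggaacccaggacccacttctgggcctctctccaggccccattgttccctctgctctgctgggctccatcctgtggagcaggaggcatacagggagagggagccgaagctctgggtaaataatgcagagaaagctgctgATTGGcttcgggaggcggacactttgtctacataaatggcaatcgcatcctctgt

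The upstream window held the TATA letters, with the first capital 68 bases before the start, and no CCAAT letters. The downstream window held the CCAAT letters 55 bases before the start and no TATA letters. Of 32851 windows of this length over all genes, 12.4% held TATAAA and 33.8% CCAAT on either strand. Neither Ddc window held an E-box (CACGTG, the letters bound by clock factors), a cAMP response element (TGACGTCA) or the CRX and OTX letters TAATCC, which were in 6.02%, 1.55% and 6.25% of all windows. The table held windows for 6 of the 8 genes, 8 windows in all. Of those, 1 held an E-box, in Mtnr1a, whereas the cAMP response element and TAATCC were in 0. Windows for Aanat and Maob were not used here.

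Aanat, the acetyltransferase whose activity sets the rhythm of melatonin synthesis, was higher on every Mfrp rd6 array than on any wild-type array. It read 8.32, 8.21 and 8.27 in Mfrp rd6, against 7.33, 7.19, 7.62 and 7.12 in wild type. The lowest Mfrp rd6 array stood 0.59 above the highest wild-type array, more than the whole range within wild type (0.50) and within Mfrp rd6 (0.11). The means were 8.27 ± 0.06 (SD, n = 3) in Mfrp rd6 and 7.32 ± 0.22 (SD, n = 4) in wild type, a difference of 0.95 (SE 0.11, 95% confidence interval 0.70 to 1.21), or 1.93-fold (1.62 to 2.31). Wild-type replicate 3 was again the highest of its group, so that leaving it out raised the difference to 1.05, and without Mfrp rd6 replicate 1 the difference was 0.93. Aanat was above the array's median on 6 of the 7 arrays and above the upper quartile on 0.

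**Figure D2:**
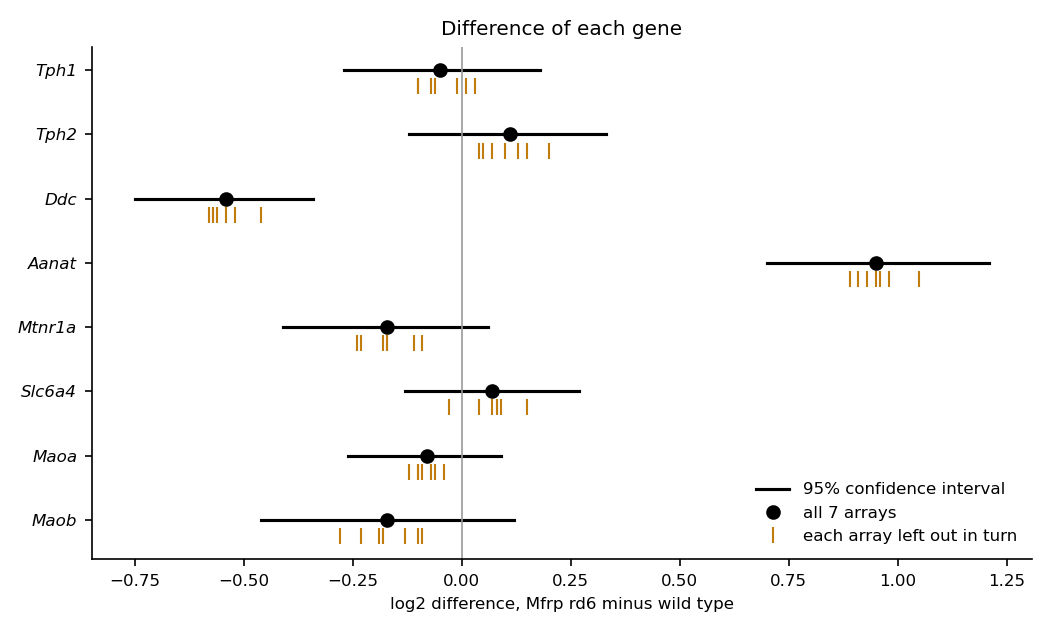
Log2 difference of each gene, Mfrp rd6 minus wild type (dots, all 7 arrays), with 95% confidence intervals (lines) and the differences when each array is left out in turn (ticks). The intervals of Aanat (0.70 to 1.21) and Ddc (-0.75 to -0.34) lie on opposite sides of 0, and those of the other 6 genes include 0.

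Mtnr1a, a receptor that couples melatonin to inhibition of cAMP, lay below the lower quartile on all 7 arrays. It read 3.90, 3.77 and 4.01 in Mfrp rd6, against 4.03, 3.87, 4.30 and 4.06 in wild type. The groups overlapped, with a difference of -0.17 (95% confidence interval -0.41 to 0.06).

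Slc6a4, the plasma membrane carrier that returns serotonin to the cell, read 5.60, 5.96 and 5.71 in Mfrp rd6, against 5.61, 5.71, 5.73 and 5.70 in wild type. The Mfrp rd6 arrays spanned 0.36 and enclosed the whole wild-type range of 0.12. The mean of Slc6a4 over the 7 arrays was 5.72, with 0 arrays above the median and 0 below the lower quartile. A change of so dim a probe set could be understated. The difference was 0.07 (95% confidence interval -0.13 to 0.27). It was -0.03 without Mfrp rd6 replicate 2, the array with the highest value. Platelets carry this transporter, and the mean of 7 measured platelet markers ran from 6.19 to 6.54 in Mfrp rd6 and from 6.41 to 6.55 in wild type, with 0 of 7 changed (limma; 1 had an unadjusted p under 0.05).

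The monoamine oxidases, which break serotonin down at the outer mitochondrial membrane, overlapped between the groups. Maoa, the form that prefers serotonin, read 6.33, 6.26 and 6.31 in Mfrp rd6, against 6.33, 6.51, 6.26 and 6.43 in wild type. Its difference of -0.08 had the narrowest 95% confidence interval of the 8, from -0.26 to 0.09. A fall of the signal below 0.838-fold or a rise above 1.06-fold lay outside it. Maoa was above the median on 0 of the 7 arrays, and RMA compresses changes of dim probe sets. These limits therefore hold for the array signal and could understate a change of the transcript. Maob, the form that prefers phenylethylamine, read 8.41, 8.33 and 8.12 in Mfrp rd6, against 8.14, 8.68, 8.57 and 8.44 in wild type. Maob was the only one of the 8 above the median on all 7 arrays, and its difference of -0.17 (-0.46 to 0.12) was smaller than its spread within wild type (range 0.54). Leaving out wild-type replicate 1, its lowest wild-type array, gave -0.28.

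The pair that differed ran in opposite directions between the groups. Over the 7 arrays the correlation of Aanat with Ddc was -0.78 (Pearson), as a description of arrays that share the group difference. Within wild type, replicate 3 had the highest value of both genes, 7.62 for Aanat and 7.90 for Ddc. The other wild-type arrays read 7.33, 7.19 and 7.12 for Aanat and 7.57, 7.60 and 7.56 for Ddc. A shared direction within wild type would rest on replicate 3 alone, so nothing is read from it. Replicate 3 also had the highest wild-type means of rod, cone and skeletal muscle markers.

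Transcripts of other cells moved with Aanat and Ddc on these arrays. Rod photoreceptors are a known site of Aanat, and their marker mean was 7.16 to 7.48 in Mfrp rd6, against 7.36 to 8.46 in wild type. All 13 measured rod markers had a negative difference, 0 passed the threshold (limma) and 4 had an unadjusted p under 0.05. The cone marker mean was 6.53 to 6.67 in Mfrp rd6, against 6.02 to 6.52 in wild type, although 6 of the 10 cone markers had a negative difference. Of these 10 2 rose and 1 fell: Gnb3 (2.61, adjusted p = 3.03e-05) and Cngb3 (1.44, adjusted p = 0.000145), subunits of the cone G protein and of the cone channel, rose, and Pde6c, the cone phosphodiesterase, fell by 0.88 (adjusted p = 0.0187). The cone opsins Opn1sw (-0.16) and Opn1mw (-0.20), the cone arrestin Arr3 (-0.09), Pde6h (-0.01) and Cnga3 (-0.14) did not pass. The cone markers Gnat2 (0.31, adjusted p = 0.179) and Gngt2 (0.38, adjusted p = 0.118) were higher and did not pass either. Their confidence intervals, 0.08 to 0.54 for Gnat2 and 0.14 to 0.61 for Gngt2, lay above 0. Without Gnb3 and Cngb3, a choice made after seeing the data, the mean of the other 8 was 6.02 to 6.17 in Mfrp rd6, against 5.93 to 6.48 in wild type. This choice left out only the 2 genes called higher and kept Pde6c, which was called lower. A smaller difference was thus built in, and nothing is read from the overlap. The mean of 18 microglia and macrophage markers was 8.77 to 9.32 in Mfrp rd6, against 7.20 to 7.30 in wild type, and 14 of 18 rose. The skeletal muscle mean was 8.21 to 9.11 in Mfrp rd6, against 6.91 to 8.18 in wild type, and 2 of 12 rose, Myh4 (1.84, adjusted p = 0.0258) and Atp2a1 (2.21, adjusted p = 0.0422). All 12 muscle markers had a positive difference, and 12 had an unadjusted p under 0.05. The surface epithelium mean was 11.25 to 11.36 in Mfrp rd6, against 11.45 to 11.58 in wild type, with 0 of 8 changed (limma; 4 had an unadjusted p under 0.05). The choroidal endothelium mean was 7.36 to 7.73 in Mfrp rd6, against 7.0 to 7.44 in wild type, and of 12 markers 2 rose and 1 fell. The difference was positive for 11 of the 12, and 10 had an unadjusted p under 0.05. Over the 7 arrays Aanat had correlations of 0.94 with the microglia mean, 0.90 with the muscle mean, -0.35 with the rod mean and -0.95 with the surface epithelium mean. Its correlation was 0.86 with the cone mean and -0.07 with that mean without Gnb3 and Cngb3, a value affected by the same choice. Ddc had -0.92 with the microglia mean, 0.81 with the rod mean and -0.63 with the muscle mean. These values describe arrays that share the group difference. The part of these cells in the signals of Aanat and Ddc was not tested, and in bulk samples fewer cells of a type and less RNA per cell cannot be told apart.

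Marker means of amacrine cells, some of which use Ddc to make dopamine, and of the RPE itself overlapped between the groups. The mean of 10 markers of amacrine cells, the dopaminergic type included, ran from 7.36 to 7.42 in Mfrp rd6 and from 7.33 to 7.53 in wild type, and 0 of 10 changed (limma; 1 had an unadjusted p under 0.05). Of the 10, 4 (Slc6a9, Pax6, Tfap2a and Tfap2b) lay above the median on every array and 2 (Gad2 and Chat) below the lower quartile on every array. The overlap of the means therefore says little about the dim genes. Th, the enzyme before Ddc in dopamine synthesis, differed by -0.04 (adjusted p = 0.851). The mean of 12 RPE markers was 11.15 to 11.22 in Mfrp rd6, against 11.18 to 11.31 in wild type, and Lrat (-0.40, adjusted p = 0.0277) was the only one of 12 to change. In the marker lists of choroidal melanocytes (10 measured), Schwann cells (5) and iris and ciliary body (6) 0 genes changed (limma; 2, 0 and 1 had an unadjusted p under 0.05).

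**Figure D3:**
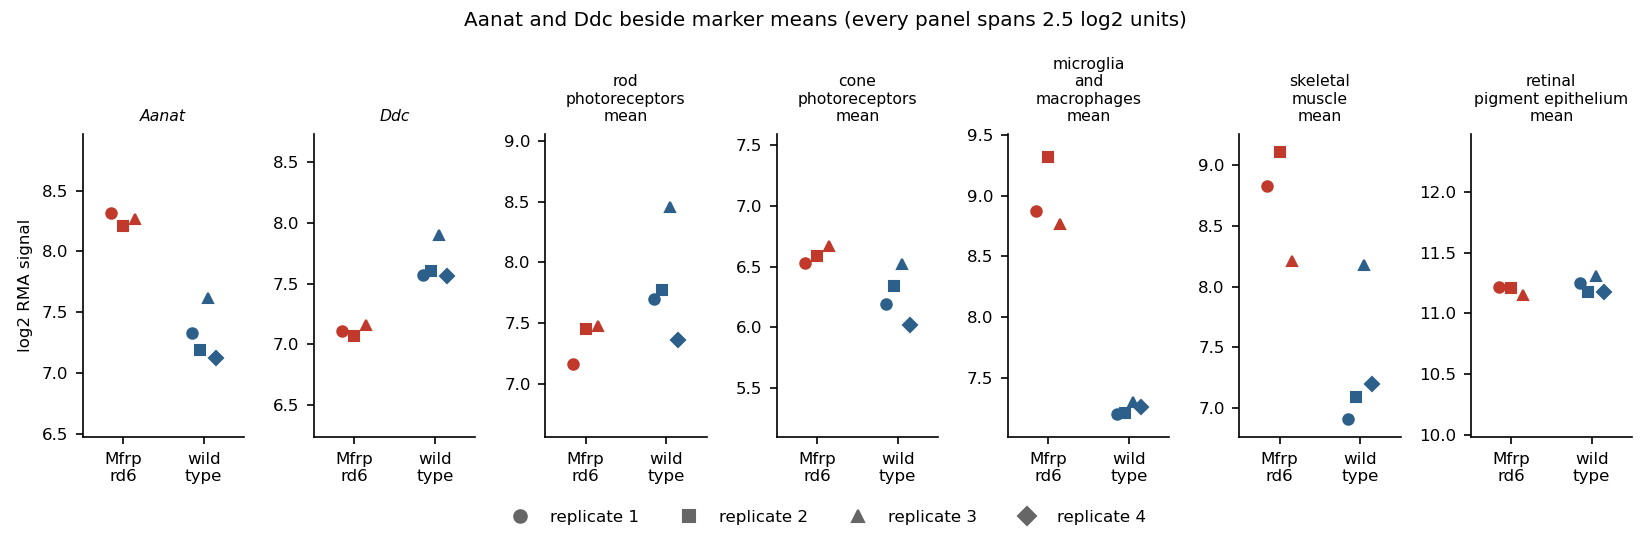
Log2 RMA signal of Aanat and Ddc beside the mean signal of 5 marker lists on each array, Mfrp rd6 (red) left of wild type (blue), with marker shapes for replicate numbers. Wild-type replicate 3 (triangle) is the highest wild-type array in all 7 panels, and the microglia and macrophage mean separates the groups most widely, at 8.77 to 9.32 in Mfrp rd6 and 7.20 to 7.30 in wild type.

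Among 3038 other genes with an SD of at least 0.2 over the arrays, the 3 whose pattern was most like that of Aanat were Kcnab1, C030006K11Rik and Zfp579, with Pearson correlations of 0.996, 0.995 and 0.992 over 7 arrays. Kcnab1, a beta subunit of voltage-gated potassium channels, read 9.19, 9.05 and 9.21 in Mfrp rd6, against 7.66, 7.57, 8.06 and 7.48 in wild type. Like Aanat, it was highest within wild type in replicate 3 and lowest in replicate 4. Kcnab1 was picked for its correlation with Aanat over these same arrays, so nothing is read from this shared order. The 3 most like Ddc were Chga, Fam184a and Spon1 (0.988, 0.979 and 0.978). Chga, a granule protein of neuroendocrine cells, read 6.05, 6.05 and 6.19 in Mfrp rd6, against 6.39, 6.40, 6.63 and 6.39 in wild type. Its difference of -0.36 did not pass the threshold (limma, adjusted p = 0.0684). Spon1, a secreted matrix protein, was lower by 0.41 on the log2 scale and passed, as did Fam184a. With 7 arrays that fall into 2 groups, 66 genes had a correlation over 0.95 with Aanat and 22 with Ddc.

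Of the other genes of the pathway, taken from 8 lists with 68 measured genes, 1 rose and 2 fell in Mfrp rd6, or 3 of 68 beside 2.15% of all genes (limma, Benjamini-Hochberg over all genes). The lists too were chosen with earlier results of these data known, so nothing is read from this count. Gch1, the first enzyme of the synthesis of tetrahydrobiopterin, the cofactor of the tryptophan hydroxylases, fell. It read 5.74, 5.74 and 5.96 in Mfrp rd6, against 6.20, 6.26, 6.33 and 6.12 in wild type, a difference of -0.41 (SE 0.08, adjusted p = 0.0389). The groups did not overlap. Leaving out each array in turn gave -0.49 to -0.38, and Gch1 passed in 1 of those 7 fits. Qdpr, which regenerates the cofactor, was lower by 0.21 and did not pass (adjusted p = 0.255), and of the 7 measured cofactor genes Gch1 was the only one to change (list median 0.0, against -0.02 over all genes).

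Among 10 measured carriers of monoamines and aromatic amino acids 1 rose and 1 fell. Slc22a2, an organic cation transporter that carries serotonin with low affinity, read 7.25, 7.27 and 7.21 in Mfrp rd6, against 6.82, 6.63, 6.91 and 6.50 in wild type, and rose by 0.53 (SE 0.10, adjusted p = 0.0281). Slc7a5, the light chain of a carrier that brings tryptophan into cells, read 10.84, 10.87 and 10.76 in Mfrp rd6, against 11.11, 11.33, 11.50 and 11.24 in wild type, and fell by 0.47 (SE 0.09, adjusted p = 0.0369). Its heavy chain Slc3a2 differed by -0.05 (adjusted p = 0.803). With each array left out in turn, Slc22a2 passed in 2 of 7 fits (0.46 to 0.59) and Slc7a5 in 1 of 7 (-0.53 to -0.40). The vesicular carrier Slc18a2 (-0.07) and the list median (-0.05) were near 0.

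In the other 6 lists 0 genes changed by limma at an adjusted p under 0.05. Counts at an unadjusted p are again given without the share of all genes, and nothing is read from them. Of 12 G protein-coupled serotonin receptors 1 had an unadjusted p under 0.05, and the brightest, Htr2a, differed by -0.12 (adjusted p = 0.55). Of 8 measured regulators of Aanat, 1 had an unadjusted p under 0.05, and the brightest, Ywhaz, a 14-3-3 protein of the kind that binds phosphorylated Aanat, differed by -0.12 (adjusted p = 0.434). Of 4 measured genes for other melatonin receptors and methylation 0 had an unadjusted p under 0.05, and Nqo2, a quinone reductase that binds melatonin, differed by -0.06 (adjusted p = 0.848). Of 10 measured genes for steps after the monoamine oxidases and for melatonin clearance 1 had an unadjusted p under 0.05, and Akr1a1, an aldehyde reductase, differed by -0.09 (adjusted p = 0.554). Of 11 genes of the kynurenine pathway, the other main fate of tryptophan, 1 had an unadjusted p under 0.05, with Kyat1, a kynurenine aminotransferase, at -0.06 (adjusted p = 0.784). Of 6 measured genes of catecholamine synthesis and dopamine receptors 1 had an unadjusted p under 0.05. This was the dopamine receptor Drd2, chosen after its values were seen, at 6.56, 6.42 and 6.58 in Mfrp rd6, against 6.17, 5.60, 6.27 and 5.89 in wild type (0.54, adjusted p = 0.111). The brightest gene of that list, Drd1, differed by -0.05 (adjusted p = 0.929). Asmt, the methyltransferase of the last step to melatonin, was not analysed here.

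**Figure D4:**
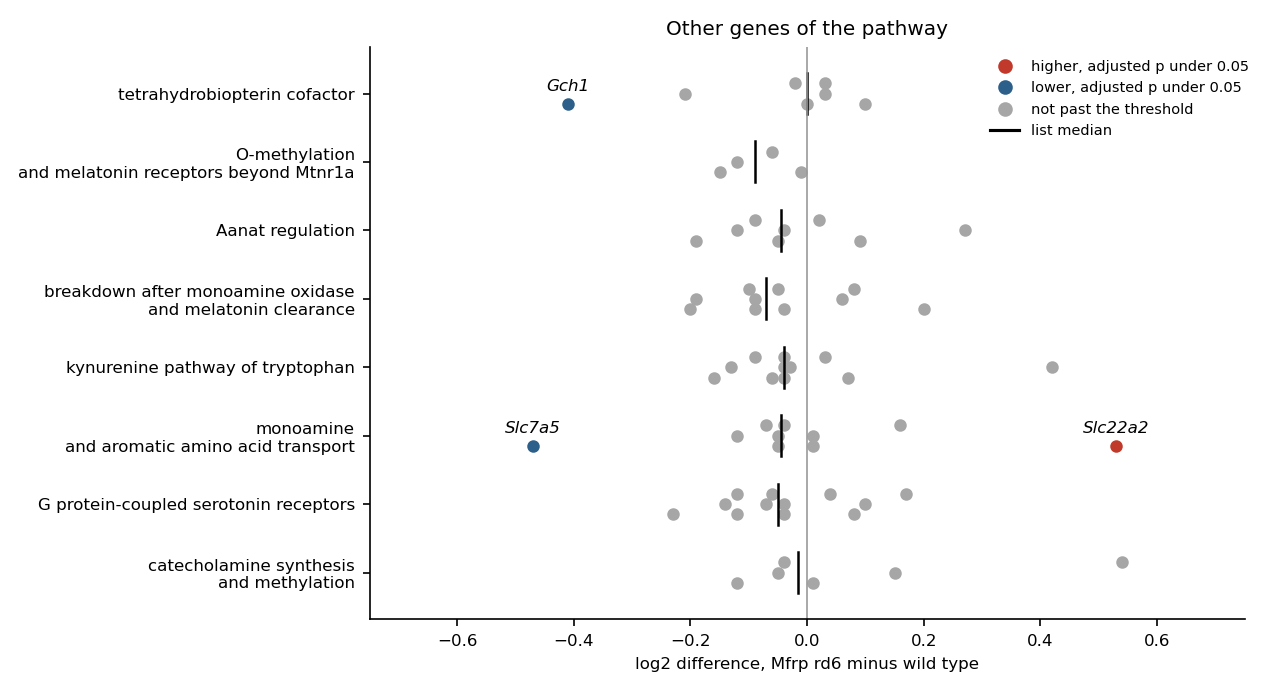
Log2 difference, Mfrp rd6 minus wild type, of the 68 other measured genes of the pathway in 8 lists, coloured by the limma call, with a bar at each list's median. Slc22a2 (0.53) is the 1 gene called higher, Slc7a5 (-0.47) and Gch1 (-0.41) are the 2 called lower, and every list median lies between -0.09 and 0.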

How the data were processed

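Per the labels' protocols, the RPE was loosened from opened eyecups in RNAProtect and its RNA was purified on columns and labelled for the arrays. The deposited table holds log2 values, 1 per probe set and array, which the authors made with Affymetrix Expression Console and RMA, per the submitters' processing notes (no version is stated). Of 35556 probe sets, 21789 had 1 symbol in the platform annotation, which can be old, 1621 had several and 12146 had none. The probe set with the highest mean was used per gene, and each of the 8 genes has 1 probe set. Overlapping RefSeq genes were listed for Ddc and Slc6a4.

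Each gene was fitted with limma 3.58.1 (lmFit, then eBayes, in R 4.3.3). The coefficient was Mfrp rd6 minus wild type, without filter or block, and p-values were adjusted by Benjamini-Hochberg over 19938 genes. The genes and the 8 pathway and 13 marker lists were chosen with earlier results of these data known. In the lists 3 older symbols were updated through RefSeq, and 9 of 77 pathway entries had no probe set of their own. Named were the 8 genes, up to 3 changed genes per pathway list or else its brightest member, the 3 genes most like Aanat and Ddc, and markers. Other genes were named after their values were seen. Alternatives were 2 normalizations, 2 filters on dim genes, array weights, robust moderation with a variance trend, averaged probe sets, a block for the replicate number, each array left out, and 1 pair of arrays (Mfrp rd6 replicate 2 with wild-type replicate 3) left out. Figures were drawn with matplotlib 3.10.9.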

Additional observations from a re-analysis of the deposited data

Results flagged for a closer look

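The Ddc signal of wild-type replicate 3 was 7.90, apart from the other 3 wild-type arrays at 7.56 to 7.60. Its gap to the nearest array was 0.882 of the range of the group, where 0.829 is the limit for 4 samples, and chance alone passes that limit in about 1 of 20 groups. It was the 1 value to do so among the 8 genes, the named pathway genes and the marker means, 30 wild-type groups in all. The Mfrp rd6 group of 3 arrays was too small for this check.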

How the results depend on the processing

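Over the 16 alternatives Aanat stayed between 0.89 and 1.08 and Ddc between -0.58 and -0.44. Maob ran from -0.28 to -0.09. Maoa, tested in 15 alternatives, ran from -0.12 to -0.04. In 14 alternatives, since the filters on dim genes leave them out, Tph2 ran from 0.04 to 0.20 and Mtnr1a from -0.24 to -0.03, and Slc6a4 (-0.03 to 0.15) and Tph1 (-0.10 to 0.03) crossed 0. Of the 8 genes 2 were past the threshold in 13 of 16 alternatives. Without Mfrp rd6 replicate 1 or 2 the count was 1, Aanat alone, as with the pair Mfrp rd6 replicate 2 and wild-type replicate 3 left out (range over single arrays left out 1 to 2). Of all genes 429 changed (267 higher, 162 lower), and 211 to 325 (152 to 235 higher, 59 to 108 lower) with 1 array left out. The count was 193 (155 and 38) without that pair, 679 (405 and 274) with array weights and 718 (363 and 355) with a variance trend. With genes above the median level 302 were lower.

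With the replicate block 225 genes changed (166 and 59), both Aanat and Ddc passed, and 0 cofactor and 0 carrier genes did. Whether the numbers pair the samples could not be told. Deviations of same-numbered arrays correlated at -0.3, -0.07 and 0.04, and those of differently numbered arrays at -0.27 to 0.37. The cofactor count of 1 was 0 to 1 and the carrier count of 2 was 0 to 2 with 1 array left out. Without the pair both were 0. Among genes above the median level they were 0 and 1, since Gch1 and Slc22a2 are dimmer than that. With array weights 1 gene of the catecholamine list passed, against 0 otherwise. Causes of the other changes were not tested. Dim probe sets limit what can be seen of Tph1, Tph2, Mtnr1a and Slc6a4.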
